A study of Homo sapiens with 32 samples.

Results

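The 9 genes of mitosis and chromosome condensation were followed by name through 32 RNA-seq libraries of LNCaP cells, and all 9 of 9 passed the filter on low counts that 3985 genes passed, in a table of 57773 genes. They were MKI67, HMGB2, NCAPD2, SMC4, NCAPG, TACC3, TMPO, RANGAP1 and LCORL, and LCORL was included because it overlaps NCAPG on the other strand and not for a mitotic role. LNCaP is an established prostate cancer line, grown out of a nodal metastasis, whose growth depends on androgen. Parental cells carried no construct, and 3 stable lines each expressed a MACC, a fusion of a DNA binding domain with the tamoxifen-controlled ERT2 domain of the estrogen receptor and a FLAG tag. The neutral MACC had no effector domain, the repressive MACC carried KRAB and the activating MACC carried VP64. The MACCs were delivered by lentivirus from a PGK promoter backbone, and the lines were blasticidin-selected populations. Each of the 4 lines received 2.5 µM tamoxifen, which moves the MACC to its binding sites on chromatin, or ethanol vehicle for 48 h, with 4 libraries in each of the 8 groups. The labels and the paper call the 4 biological replicates without saying whether they were separate cultures, so p-values measure the spread between these libraries.

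When a cell enters mitosis, condensin complexes fold its replicated chromatin into compact chromosomes, and MKI67 coats their surface. The nuclear envelope then comes apart, and a spindle, built with help from TACC3 and from the Ran gradient that RANGAP1 maintains, separates the sister chromatids. Many of these genes are transcribed late in the cell cycle. The DREAM complex represses them in resting cells, MuvB with B-MYB and FOXM1 activates them through an element called the cell cycle homology region, and the factor NF-Y binds nearby. MKI67 is the usual histological marker of dividing prostate tumour cells.

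With the activating MACC, counts at 8 of the 9 genes were lower after tamoxifen than after vehicle, against 44.8% of all tested genes that changed and 22.8% that were lower. The median log2 fold change was -2.44 over the 9 genes and -0.0924 over all tested genes. In parental cells none of the 9 passed the test, where 0% of all genes did with edgeR or DESeq2 and 306 genes had an unadjusted p under 0.05, and in the neutral line none passed, where 4.72% of all genes did. Tamoxifen in the repressive line gave 1 gene higher (NCAPD2) and 1 lower (LCORL), against 17.8% of all genes called, 7.8% higher and 9.99% lower. RNA was taken from whole cultures, so fewer cells in mitosis and less RNA per cell cannot be told apart.

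**Figure D1:**
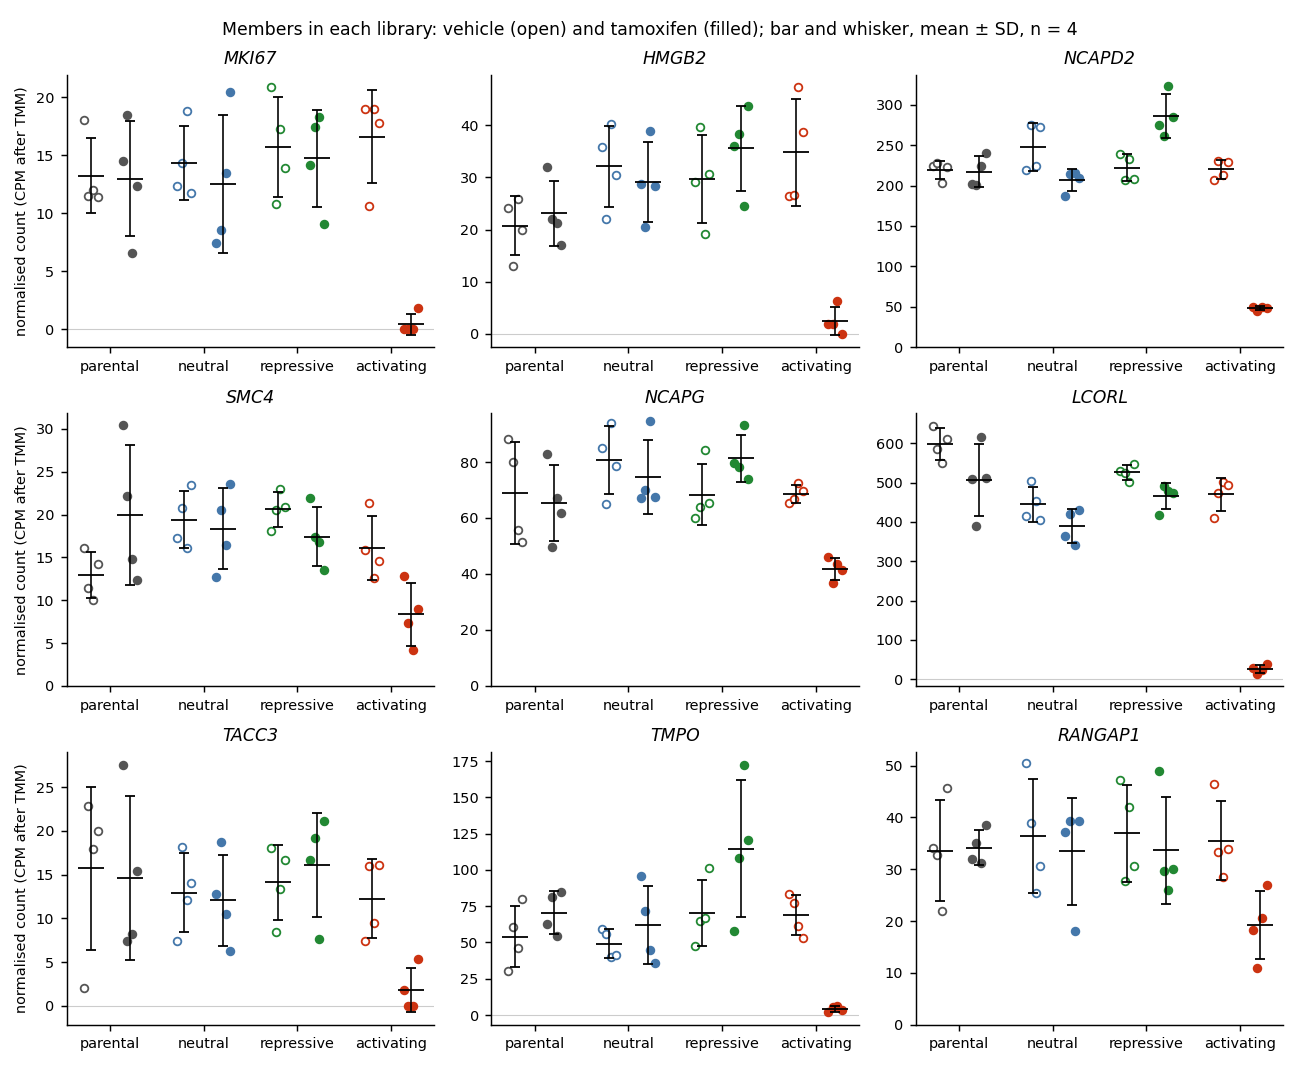
Normalised count (CPM after TMM scaling) of each of the 9 genes in every library, by line, with vehicle as open and tamoxifen as filled points and the mean ± SD of 4 libraries in black. The activating line under tamoxifen lies below all 28 other libraries for 6 genes, with LCORL at most 37.8 there and at least 341.9 elsewhere. It does not for SMC4, TACC3 and RANGAP1. How large a share of all tested genes lies apart in this way was not counted.

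Counts per library bound what these values can show. Library totals ran from 454982 to 1164808 estimated counts, so the mean count over the 32 libraries was 8.53 for MKI67, 8.5 for TACC3, 11.3 for SMC4, 17.97 for HMGB2 and 22.4 for RANGAP1. It was 42.5 for TMPO, 46.3 for NCAPG, 142.1 for NCAPD2 and 290.0 for LCORL. Per kilobase of exon the normalised count was highest for NCAPD2 at 32.2 and LCORL at 25.3 and lowest for MKI67 at 0.978.

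Strand context was examined beside these levels. Genes with an exon overlapped by an exon on the opposite strand made up 40.6% of the genes with a count and held 76.1% of the counts. Genes that every cell uses had few counts, with means of 37.1 for ACTB and 65.5 for GAPDH. MT-ND6, which lies alone on its strand of the mitochondrial genome among the protein genes, had a mean count of 4468, while the median over the 12 on the opposite strand was 156.0. The library kit keeps strand, and the strand setting of the counting is not given in the sources used here. Counts at a named gene may therefore come from RNA of the opposite strand, which was not tested, and "lower" is said of the count at that name. MKI67, HMGB2 and RANGAP1 have no annotated exon on the opposite strand, and the other members do.

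ESR1, whose hormone-binding part lies in every MACC, had 0 to 2 counts in parental libraries and 66 to 159 in the libraries of the MACC lines. Of 12 luminal markers of LNCaP, 11 or 12 had counts in each group. Their summed normalised count was 873 to 1790 in 7 groups and 8740 to 11000 in the activating line under tamoxifen, where KRT8 was higher by 3.27 on the log2 scale. Of 9 markers of other cell types in the table, PTPRC, COL1A2, COL3A1, DCN and TP63 were at 0 in every library. The sum of that list was at most 5.71 in 7 groups and 80.7 to 105 in the activating line under tamoxifen, where KRT5 was counted, at 0 in the 28 other libraries. The part of these keratin counts in the results was not tested.

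NCAPD2, NCAPG and SMC4 encode condensin subunits: SMC4 is one of the paired ATPase arms of both condensins, and NCAPD2 and NCAPG are HEAT-repeat subunits of condensin I. NCAPD2 (ENSG00000010292, chr12:6602522-6641121, plus strand, GRCh37) had 196, 173, 135 and 142 counts in the activating vehicle libraries and 27, 24, 24 and 27 after tamoxifen. The 4 tamoxifen values lay together, below every other library of the series. Its normalised count went from 220.0 ± 11.8 to 48.0 ± 2.63 (SD, n = 4), a log2 fold change of -2.07 with a standard error of 0.14 (edgeR adjusted p = 2.87e-11).

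NCAPG (ENSG00000109805, chr4:17812602-17846488, plus strand) moved less. It had 62, 50, 46 and 43 counts with vehicle and 25, 20, 21 and 23 with tamoxifen in the activating line. The groups did not overlap, and normalised counts were 68.5 ± 3.21 and 41.9 ± 3.88 (SD, n = 4). The log2 fold change was -0.58 with a standard error of 0.19 (adjusted p = 0.0146), and this call was lost with DESeq2 (adjusted p = 0.0766) and with no filter on low counts (0.0939).

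SMC4 (ENSG00000113810, chr3:160117062-160152742, plus strand) was the 1 member that did not pass. Its counts were 15, 16, 8 and 9 with vehicle and 7, 4, 2 and 5 with tamoxifen. Scaled to depth, the groups met, with normalised counts of 12.6 to 21.3 and 4.14 to 12.9. The log2 fold change was -0.81 (95% interval -1.58 to -0.0381, adjusted p = 0.0996), and with library totals in place of TMM it was -1.25 and passed (adjusted p = 0.0134).

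LCORL (ENSG00000178177, chr4:17842810-18023499, minus strand) encodes a DNA-binding corepressor-like protein, and its exons share 1634 bases with those of NCAPG, 33.7% of NCAPG's exonic length and 9.7% of its own. Its counts were 389, 356, 317 and 305 with vehicle and 15, 8, 11 and 21 with tamoxifen in the activating line. No library elsewhere in the series came near the tamoxifen values. The normalised count went from 469.6 ± 40.8 to 25.7 ± 9.66 (SD, n = 4), with a log2 fold change of -4.05 and a standard error of 0.17 (adjusted p = 1.65e-15).

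The count of LCORL divided by that of NCAPG was 0.4 to 0.913 in the 4 activating tamoxifen libraries and 3.62 to 11.9 in the other 28. The 2 features of this locus therefore moved unequally. How their shared reads were split between them was not tested.

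**Figure D2:**
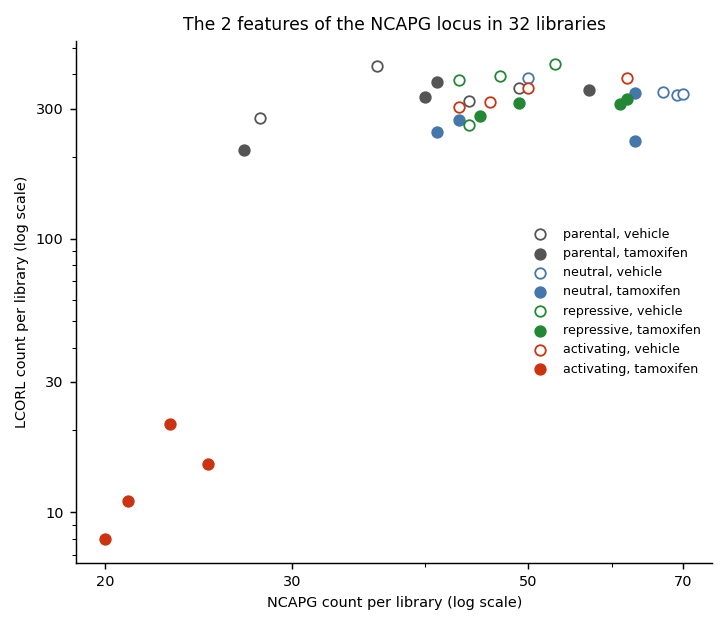
Count of LCORL against count of NCAPG in each of the 32 libraries, both on log scales, coloured by line, with vehicle open and tamoxifen filled. The 4 activating tamoxifen libraries stand apart at 8 to 21 LCORL and 20 to 25 NCAPG counts.

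MKI67 and HMGB2 act on chromatin itself. MKI67, the Ki-67 antigen, keeps mitotic chromosomes apart as a surface coat, and HMGB2 is an HMG box protein that bends DNA. MKI67 (ENSG00000148773, chr10:129894923-129924687, minus strand) had 18, 8, 12 and 11 counts with vehicle and 0, 0, 0 and 1 with tamoxifen in the activating line. Every other group had at least 4 counts in each library. Summed over the 4 libraries and scaled to depth, the tamoxifen count was 2.83% of the vehicle count (exact 95% interval 0.0702% to 16.5%, counting error only). The fitted log2 fold change was -4.55 with a standard error of 0.74 (adjusted p = 2.11e-05), a value that rests on 1 count and on the prior count of the fit.

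HMGB2 (ENSG00000164104, chr4:174252527-174255583, minus strand) had 25, 20, 30 and 24 counts with vehicle and 1, 1, 3 and 0 with tamoxifen. No library outside that tamoxifen group was under 8. The summed tamoxifen count was 7% of that with vehicle (exact 95% interval 2.23% to 16.9%), and the fitted log2 fold change was -3.63 with a standard error of 0.50 (adjusted p = 2.28e-06).

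TACC3, a coiled-coil protein that bridges spindle microtubules with clathrin and ch-TOG, was near the detection limit throughout. TACC3 (ENSG00000013810, chr4:1714585-1746898, plus strand) had 7, 12, 6 and 10 counts with vehicle and 1, 0, 0 and 3 with tamoxifen in the activating line. These groups did not overlap, but 1 parental vehicle library also had only 1 count. The summed tamoxifen count was 15.8% of that with vehicle (exact 95% interval 4.09% to 44.3%), and the fitted log2 fold change was -2.44 with a standard error of 0.69 (adjusted p = 0.00565).

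TMPO encodes the LAP2 proteins of the inner nuclear membrane and nucleoplasm, which bind lamins and chromatin and are released when the envelope breaks down. TMPO (ENSG00000120802, chr12:98909357-98944129, plus strand) had 79, 58, 39 and 33 counts with vehicle and 1, 3, 3 and 2 with tamoxifen in the activating line. The lowest library elsewhere had 15. The summed tamoxifen count was 5.97% of that with vehicle (exact 95% interval 2.69% to 11.6%), and the fitted log2 fold change was -3.86 with a standard error of 0.34 (adjusted p = 1.62e-09).

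RANGAP1, the GTPase activator that keeps Ran in its GDP form in the cytoplasm and a classic SUMO substrate, showed a smaller difference. RANGAP1 (ENSG00000100401, chr22:41640783-41682191, minus strand) had 44, 25, 18 and 21 counts with vehicle and 10, 6, 10 and 15 with tamoxifen in the activating line. Normalised counts were 35.5 ± 7.69 and 19.3 ± 6.60 (SD, n = 4) and did not overlap. The log2 fold change was -0.78 with a standard error of 0.29 (adjusted p = 0.0304). That call was lost with DESeq2 (adjusted p = 0.114), with no filter (0.0933), with only genes lacking an opposite-strand exon (0.0888) and without activating vehicle replicate 1 (0.129), tamoxifen replicate 1 (0.0636) or tamoxifen replicate 2 (0.117).

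**Figure D3:**
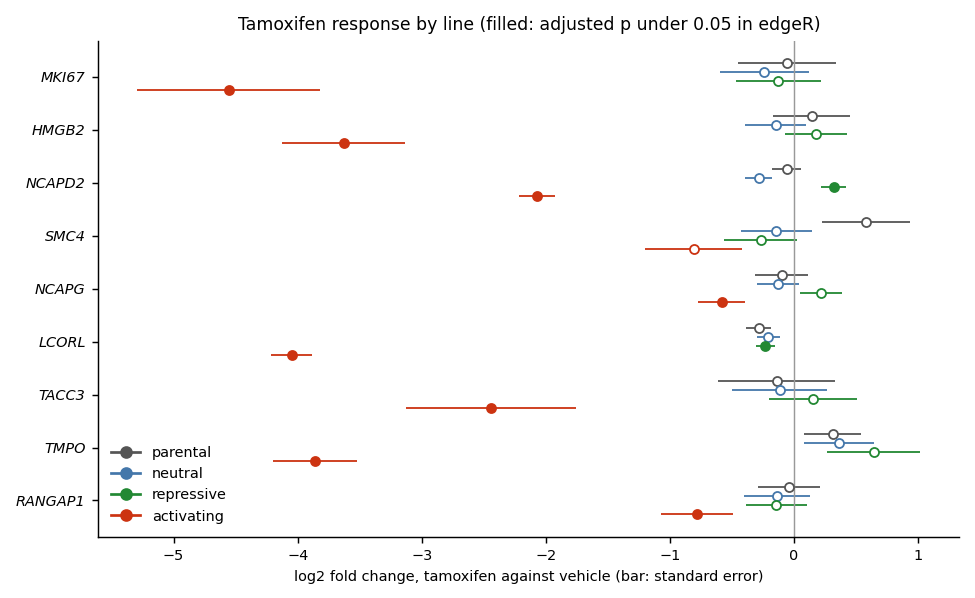
Log2 fold change of tamoxifen against vehicle for each gene in the 4 lines, with its standard error as a bar and filled points where the edgeR adjusted p was under 0.05. The activating line runs from -4.55 for MKI67 to -0.58 for NCAPG, while the other lines lie between -0.28 and 0.64.

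Lines were then compared in their response to tamoxifen. The response of the activating line was below that of the neutral line for 6 of the 9 genes, against 33.4% of all genes with a different response and 17.3% with a lower one. The difference in log2 fold change was -4.39 for MKI67 (adjusted p = 0.000205), -3.52 for HMGB2 (1.69e-05), -1.82 for NCAPD2 (4.83e-10), -3.87 for LCORL (1.86e-16), -2.37 for TACC3 (0.0233) and -4.26 for TMPO (3.74e-07). It was not resolved for NCAPG (-0.48, 95% interval -0.948 to -0.0187, adjusted p = 0.123), SMC4 (-0.70, -1.62 to 0.217, 0.274) or RANGAP1 (-0.68, -1.48 to 0.125, 0.22). The TACC3 call was lost without activating tamoxifen replicate 2 or 3, activating vehicle replicate 2 or neutral tamoxifen replicate 2, with adjusted p up to 0.062.

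Against the repressive line, the activating response was lower for 7 of the 9 genes, where 35.9% of all genes differed and 17.8% were lower. NCAPG joined the 6 above, at -0.80 with a standard error of 0.25 (adjusted p = 0.00979, and 0.0706 with no filter). The other 6 differed by -4.45 (MKI67), -3.82 (HMGB2), -2.39 (NCAPD2), -3.83 (LCORL), -2.60 (TACC3) and -4.52 (TMPO), with adjusted p from 8.5e-20 to 0.00791. SMC4 (-0.54, 95% interval -1.47 to 0.377) and RANGAP1 (-0.64, -1.40 to 0.112) were again not resolved. These comparisons and those within lines share the activating libraries.

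In the repressive line NCAPD2 was the member that rose. MRPL51, which overlaps it on the other strand, also rose there (log2 fold change 0.51, edgeR adjusted p = 0.000895). Which strand the NCAPD2 counts came from was not tested. NCAPD2 had 172, 172, 122 and 150 counts with vehicle and 214, 150, 212 and 189 with tamoxifen. Normalised counts were 222.1 ± 16.7 and 286.2 ± 26.8 (SD, n = 4). The groups did not overlap on the normalised scale, and the log2 fold change was 0.32 with a standard error of 0.10 (adjusted p = 0.0214). The call was lost with DESeq2 (adjusted p = 0.0729), with no filter (0.116), with library totals in place of TMM (0.231) and without tamoxifen replicate 3 (0.0973), vehicle replicate 2 (0.0896) or vehicle replicate 4 (0.0654). NCAPD2 was also the 1 gene whose response was higher in the repressive than in the neutral line, by 0.60 with a standard error of 0.14 (adjusted p = 0.0124, and 0.0857 with library totals), where 3.39% of all genes differed and 1.53% were higher. In the neutral line its own log2 fold change was -0.28 (adjusted p = 0.158).

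LCORL in the repressive line had 381, 435, 262 and 394 counts with vehicle and 324, 282, 313 and 315 with tamoxifen. Its normalised counts of 525.8 ± 19.2 and 465.0 ± 32.8 (SD, n = 4) did not overlap, and the log2 fold change was -0.23 with a standard error of 0.08 (adjusted p = 0.0392). Leaving out any 1 library but vehicle replicate 1 and tamoxifen replicate 2 put the adjusted p above the threshold, at up to 0.149, and it was 0.127 with DESeq2, 0.212 with no filter and 0.0737 in 1 model over all groups. A value of like size without a call was seen for LCORL in parental cells (-0.28, adjusted p = 0.519) and in the neutral line (-0.21, 0.249).

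TMPO in the repressive line had 34, 54, 35 and 73 counts with vehicle and 45, 62, 113 and 80 with tamoxifen. The groups overlapped, and its log2 fold change of 0.64 (95% interval -0.0925 to 1.38) did not pass (adjusted p = 0.315). It passed without tamoxifen replicate 1 (adjusted p = 0.0115) and with no filter (0.0101). The remaining 6 genes had log2 fold changes of -0.27 (SMC4) to 0.22 (NCAPG) in this line.

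In parental cells, which lack a MACC, log2 fold changes ran from -0.28 (LCORL) to 0.58 (SMC4, 95% interval -0.116 to 1.28), with adjusted p of 0.519 or more. In the neutral line they ran from -0.28 (NCAPD2) to 0.36 (TMPO), with adjusted p of 0.158 or more. For MKI67 the approximate 95% interval was -0.83 to 0.723 in parental cells and -0.935 to 0.461 in the neutral line, and both rest on few counts.

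Before induction, LCORL was the 1 member that passed the test between a MACC line and parental cells. Its vehicle counts were 321, 358, 276 and 429 in parental, 337, 388, 338 and 345 in neutral and 389, 356, 317 and 305 in activating cells. Normalised counts were 598.1 ± 39.7 in parental, 444.7 ± 44.9 in neutral, 525.8 ± 19.2 in repressive and 469.6 ± 40.8 in activating cells (SD, n = 4). The log2 difference from parental cells was -0.47 ± 0.09 (SE) in the neutral line (edgeR adjusted p = 0.00123), where 9.74% of all genes differed and 5.72% were lower. It was -0.36 ± 0.10 (SE) in the activating line (adjusted p = 0.0336), where 8.08% differed and 3.84% were lower, and this call was lost without parental replicate 3 or activating replicate 1, 2 or 3, with adjusted p up to 0.0791. In the repressive line no member differed, where 10.8% of all genes did, and LCORL was at -0.18 (adjusted p = 0.219). MKI67 was at 13.2 ± 3.24, 14.3 ± 3.18, 15.7 ± 4.32 and 16.6 ± 4 normalised counts in vehicle-treated parental, neutral, repressive and activating cells (SD, n = 4), and these neighbours did not differ beyond their spread. HMGB2 was at 20.8 ± 5.69 in parental and 29.7 ± 8.43 to 34.8 ± 10.2 in MACC cells, log2 differences of 0.57 to 0.73 that did not pass (adjusted p = 0.139 to 0.239).

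Condensin and the other mitotic groups were set beside the members. Of 158 genes on 8 lists of mitotic function, 157 had a count and 37 passed the filter, and 6 were higher and 18 lower in the activating line, against 22% and 22.8% of all tested genes. Without the members, 29 were tested, 6 were higher and 11 lower, and their median log2 fold change was -0.435. With library totals in place of TMM 3 of the 37 were higher and 22 lower, where 11.1% and 42.3% of all genes were. Without the members, 3 of 29 were then higher and 14 lower. Against the neutral response, with TMM, 4 of those 29 were higher and 5 lower, where 16% and 17.3% of all genes were. The neutral line gave 1 higher and 1 lower of the 37, the repressive line 2 and 2, and parental cells 0.

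NCAPD3, a subunit of condensin II, was at 0.41 in the activating line (adjusted p = 0.015) and at -0.05 with library totals in place of TMM, while NCAPD2 and NCAPG of condensin I were lower. The activating response of NCAPD3 was not called different from the neutral one (0.09, adjusted p = 0.725). On the list of chromosome surface and HMG box genes, 4 of 7 were lower and 1 higher: besides the 2 members, the nucleolar proteins NCL (-1.14, adjusted p = 4.68e-05) and NPM1 (-1.33, 0.000616) were lower, and SSRP1, the HMG box subunit of the FACT histone chaperone, was higher by 1.25 (0.00139). NCL and NPM1 have no annotated exon on the opposite strand.

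Of 5 nuclear envelope genes 3 were lower: TMPO, the B-type lamin gene LMNB1 (-1.49, adjusted p = 0.0407) and SUN2 of the nuclear envelope bridge to the cytoskeleton (-1.46, 0.00202). SUN2 was also lower in the repressive line (-0.98, adjusted p = 0.0137), with no call for the difference between those responses (-0.49, 0.457). Against the neutral response in the edgeR interaction test, TMPO was called, and SUN2 (-0.77, adjusted p = 0.219) and LMNB1 (-1.43, 0.151) were not. RANGAP1 was the 1 gene called of 4 in the Ran and SUMO list, and the other 3 did not pass. Of 6 spindle genes 4 were lower and 2 higher. PRC1, which bundles midzone microtubules, was at -1.59 (adjusted p = 0.00327), NUMA1 of the spindle poles at -0.76 (0.00198) and TACC2, a relative of TACC3, at 3.40 (4.55e-08). Clathrin heavy chain, CLTC, was at 0.41 (adjusted p = 0.0108) and at -0.03 with library totals. Against the neutral response, TACC3, TACC2 (3.22, adjusted p = 0.000152) and CLTC (0.48, 0.0295) were called. PRC1 (-1.18, adjusted p = 0.117) and NUMA1 (-0.52, 0.0986) were not.

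The chromosomal passenger INCENP was at -1.92 (adjusted p = 0.000825) and the centromere protein CENPN at 1.11 (9.15e-07), the 2 kinetochore genes tested of 32. INCENP was also lower in the neutral line (-1.01, adjusted p = 0.0414), and its activating response was not called different from that one (-0.94, 0.19). CENPN was lower in the repressive line (-0.48, 0.036). STAG1, a cohesin subunit, was the 1 gene of its list tested, at -0.64 (adjusted p = 0.0249). Its activating response was not called different from the neutral one (-0.51, 0.2). Of 8 entry and exit genes, UBE2S, an E2 enzyme of the anaphase-promoting complex, was at -1.31 (adjusted p = 0.0166) and MASTL, the Greatwall kinase, at 0.73 (0.00561). CDC23, a subunit of that complex, had 5 to 11 counts with vehicle and 0 in each activating tamoxifen library (adjusted p = 0.00011). With library totals in place of TMM, MASTL was at 0.29 and did not pass (adjusted p = 0.267).

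Regulators of mitotic transcription did not move one way: of 7 tested, 4 were higher and 3 lower in the activating line, but with library totals in place of TMM 1 was higher, RBBP4, and 3 were lower. E2F5 was then at -0.09 and RBL2 at 0.27 (adjusted p = 0.334). LIN9, a MuvB core subunit, was at -4.02 (adjusted p = 3.22e-06), and CDKN2C, a CDK4 and CDK6 inhibitor, at -1.15 (0.0106). RBBP4, a histone-binding MuvB subunit, was at 1.23 (adjusted p = 4.59e-05) and RBL2, the pocket protein p130 of DREAM, at 0.72 (0.0113). FOXM1, named for its role and chosen after its values were seen, was at -1.27 in the activating line (adjusted p = 0.0138) and at -1.28 in the repressive line (0.0107), and its activating response was not called different from the neutral one (-1.09, 0.131).

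**Figure D4:**
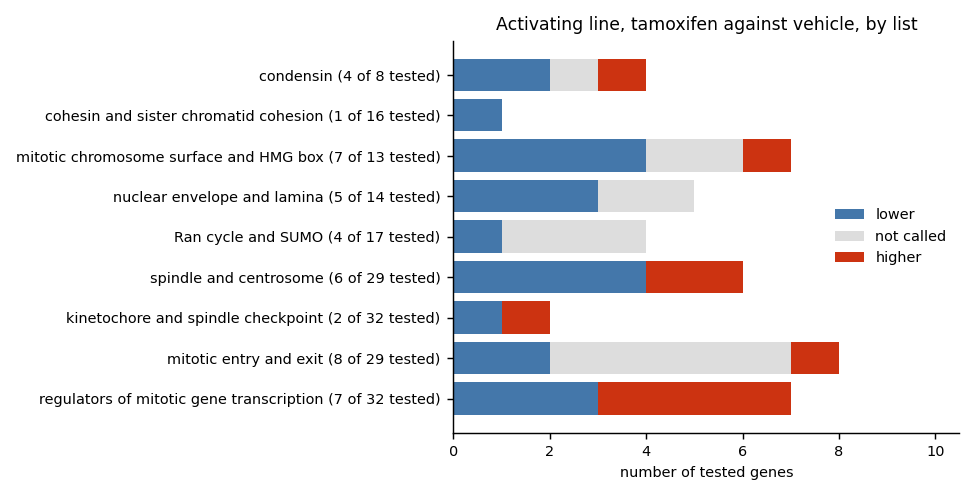
Number of tested genes that were lower, not called or higher in the activating line under tamoxifen, for 8 lists of mitotic function and the list of regulators, members included. The label of each bar gives how many genes of the list were tested, from 1 of 16 cohesion genes to 8 of 29 entry and exit genes. Among the higher calls, NCAPD3, CLTC and E2F5 change sign with library totals in place of TMM.

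Features opposite the mitotic genes were counted in the same way, since strand could not be settled. TRIM59, a ubiquitin ligase gene that overlaps SMC4 by 1553 bases, had a mean count of 813 against 11.3 for SMC4. Its counts were 909 to 1171 with vehicle and 126 to 146 with tamoxifen in the activating line, a log2 fold change of -2.29 with a standard error of 0.09 (adjusted p = 4.35e-16). IFT80, which also overlaps SMC4, was at -2.20 (adjusted p = 0.000607), so both features on the other strand of SMC4 were lower while SMC4 itself did not pass.

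At TMPO, the antisense RNA TMPO-AS1 was at -1.82 (adjusted p = 0.00691) beside -3.86 for TMPO. MRPL51, a mitochondrial ribosome gene that overlaps NCAPD2 by 383 bases, was at -0.28 and did not pass (adjusted p = 0.106), though with library totals it was at -0.72 and passed (0.000359), while NCAPD2 fell by 2.07 on the log2 scale. Its mean count per kilobase of exon was 4.12 times that of NCAPD2. TMEM129 opposite TACC3 had a mean of 2.84 counts.

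Over the 8 mitotic lists and the members, 54 of 159 genes had an exon overlap on the opposite strand, with 72 features of which 42 were tested. In the activating line 20 of these features were lower and 8 higher, against 22.8% and 22% of all tested genes, and 14 fell by more than 1. The 20 include LCORL, NCAPG and CDC23, which are members or list genes already counted above. The median log2 fold change of the 42 features was -0.502, beside -0.0924 over all genes. With library totals in place of TMM, 27 were lower and 1 higher, where 42.3% and 11.1% of all genes were. In the repressive line 3 were higher and 4 lower, and in neutral and parental cells 0. The 32 regulators, counted apart, had 13 such features, of which 7 were tested, 3 lower and 1 higher in the activating line. The smallest adjusted p of all was that of ITFG2 opposite FOXM1, at -3.64 in the activating line (5.97e-18), while the repressive line had 0.29 (0.00182), with a mean count of 624 against 8.31 for FOXM1. Beside ITFG2, LCORL and TRIM59, the features with the smallest adjusted p were PRC1-AS1 opposite PRC1 (-2.86), PAQR4 opposite PKMYT1 (-3.60), EXOSC9 opposite CCNA2 (-3.36), LCTL opposite ZWILCH (-1.86) and JAM3 opposite NCAPD3 (-1.59). PKMYT1, which restrains CDK1, and CCNA2, cyclin A2, did not pass themselves (-0.09, adjusted p = 0.446, and -0.61, 0.145), but did with library totals (-0.54, 0.000359, and -1.06, 0.0115).

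**Figure D5:**
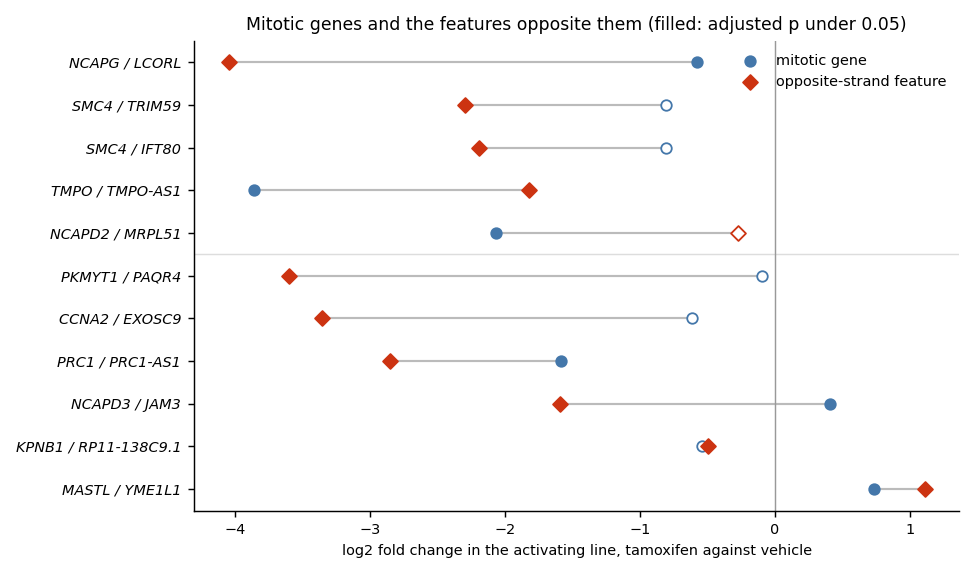
Log2 fold change in the activating line for a mitotic gene (circle) and the feature on its opposite strand (diamond), filled where the adjusted p was under 0.05, with members above the line and, below it, other pairs in which both were tested, by adjusted p of the feature. LCORL, TRIM59, PAQR4 and EXOSC9 lie at -2.29 or below while the gene opposite lies at -0.81 or above.

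Upstream sequence was examined because 8 of the 9 members were lower in the activating line. RefSeq promoters (table of build GRCh38.p14) were found for 8 of the 9 members, not for HMGB2, and each of 12 windows of 250 bases before a start matched GRCh37 at exactly 1 place. TTTGAA, the core of the cell cycle homology region, on either strand occurred in 5 of the 12 windows, of 5 members, and in 13.3% of 35116 promoters. CCAAT, the letters NF-Y binds, on either strand occurred in 4 of the 12 windows, of 3 members, and in 32% of promoters. Of those 4, 2 are overlapping windows of TMPO with the same sites. Both motifs together occurred in 2 windows, those of MKI67 and NCAPD2, and in 4.7% of promoters. The E2F letters TTTCCCGC, TTTCGCGC, TTTGCCGC and TTTGGCGC occurred in none of the 12 and in 2.8%. A match is a description of letters and not of a bound site, and its bearing on the counts was not tested.

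The 4 windows below are those of MKI67 and NCAPD2, which hold both motifs, of NCAPG, which holds TTTGAA, and of LCORL, which holds neither. They are chr10:129924688-129924937 on the minus strand, chr12:6603018-6603267 and chr4:17812352-17812601 on the plus strand and chr4:18023499-18023748 on the minus strand (GRCh37), written 5′ to 3′ with TTTGAA and CCAAT, or their reverse complements, in capitals. The last pair in MKI67 shares 1 base.
MKI67: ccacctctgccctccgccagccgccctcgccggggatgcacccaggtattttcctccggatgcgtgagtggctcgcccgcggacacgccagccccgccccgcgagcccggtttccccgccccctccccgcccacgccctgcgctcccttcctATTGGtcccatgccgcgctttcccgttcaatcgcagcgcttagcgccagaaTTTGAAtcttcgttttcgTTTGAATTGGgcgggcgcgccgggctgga
NCAPD2: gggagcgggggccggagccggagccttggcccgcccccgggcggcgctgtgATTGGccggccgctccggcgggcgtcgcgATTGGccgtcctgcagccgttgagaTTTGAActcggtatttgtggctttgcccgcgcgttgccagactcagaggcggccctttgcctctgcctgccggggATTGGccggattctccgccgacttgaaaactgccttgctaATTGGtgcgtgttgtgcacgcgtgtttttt
NCAPG: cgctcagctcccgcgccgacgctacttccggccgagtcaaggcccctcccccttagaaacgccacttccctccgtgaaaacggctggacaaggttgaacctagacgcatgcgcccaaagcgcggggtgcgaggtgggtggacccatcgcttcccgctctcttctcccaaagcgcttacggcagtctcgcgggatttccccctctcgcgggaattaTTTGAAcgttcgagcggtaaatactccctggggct
LCORL: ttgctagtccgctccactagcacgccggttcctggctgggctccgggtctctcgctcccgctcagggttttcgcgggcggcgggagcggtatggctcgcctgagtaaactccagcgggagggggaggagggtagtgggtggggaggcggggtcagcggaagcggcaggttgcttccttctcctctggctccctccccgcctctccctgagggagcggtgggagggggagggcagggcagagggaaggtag
MKI67 held TTTGAA 47 and 29 bases before its start and CCAAT 98 and 24 bases before it, NCAPD2 held CCAAT 4 times and NCAPG held TTTGAA 35 bases before its start. SMC4 and RANGAP1 each held TTTGAA in 1 of their 2 windows, and TACC3 held neither motif. TMPO held CCAAT in both of its windows, which overlap and hold the same sites.

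Genes with the most similar pattern were found by Pearson's correlation of log2 CPM over the 32 libraries, which share library depth and the separation of 1 group. For LCORL these were PAQR4 (r = 0.984), ENOSF1 (0.984) and AC087645.1 (0.983). For NCAPD2 they were AC021224.1 (0.984), DNAH11 (0.981) and ENOSF1 (0.981), for TMPO ATP8B4 (0.962), RP11-229P13.23 (0.951) and ADCY3 (0.937). NCAPG, with DENND4C (0.825), UFD1L (0.822) and CLCC1 (0.82), and RANGAP1, with WHSC1 (0.701), STEAP3-AS1 (0.693) and RPL13 (0.676), had no gene as close.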

How the data were processed

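Per the labels and the paper's methods, the authors ran nf-core/rnaseq on GRCh37 and deposited 1 table of estimated counts per gene from Salmon 1.9.0, not normalized, for 32 libraries made with a stranded mRNA kit. The annotation release and the strand setting of the counting are not given in the sources used here. The estimated counts were rounded. Genes were kept by filterByExpr over the 8 groups, scaled by TMM and tested with edgeR 4.0.16 (quasi-likelihood, robust) in R 4.3.3, each line alone, with interaction terms between lines and Benjamini-Hochberg adjustment over 3985 genes at 0.05. DESeq2 1.42.0 was an alternative. The fit was tested on simulated data. Positions and opposite-strand exons came from GENCODE v44 lifted to GRCh37, which held 96.1% of the genes. Members and lists were chosen with earlier results of these data known. The text names list genes called in the activating line, at most 4 per list by adjusted p, at most 8 opposite-strand features of the mitotic lists and regulators, and for members with a mean of at least 20 counts the 3 genes of highest correlation. No 2 replicates agreed within sampling noise (chi-square per degree of freedom 1.45 or more over 48 pairs). Intervals (95%) of log2 fold changes are ± 1.96 standard errors, a normal approximation that can be narrower than the edgeR test implies. Exact intervals (95%) cover counting error only. Members not above 3 counts in a group are given by such intervals.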

Additional observations from a re-analysis of the deposited data

Results flagged for a closer look

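Responses to tamoxifen differed between lines by an interaction test in edgeR. Between the activating and neutral lines the difference in log2 fold change was -4.39 for MKI67, -3.52 for HMGB2, -1.82 for NCAPD2, -3.87 for LCORL, -2.37 for TACC3 and -4.26 for TMPO. Between the activating and repressive lines it was -4.45 for MKI67, -3.82 for HMGB2, -2.39 for NCAPD2, -0.80 for NCAPG, -3.83 for LCORL, -2.60 for TACC3 and -4.52 for TMPO. Between the repressive and neutral lines it was 0.60 for NCAPD2.

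Of 72 groups of 4 libraries, 5 held 1 library far from the other 3 by Dixon's test, and chance gives about 1 in 20. MKI67 stood apart in parental vehicle replicate 1 (normalised count 18.1), activating vehicle replicate 2 (10.7) and activating tamoxifen replicate 4 (1.8, from 1 count where the others had 0). Neutral tamoxifen replicate 3 stood apart for NCAPG (94.5) and for RANGAP1 (18).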

How the results depend on the processing

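With opposite-strand exons left out, 902 genes and 3 members were tested, which by itself lowers the counts. Genes called were then 361 in the activating, 133 in the repressive and 31 in the neutral line, 246, 291 and 36 for activating against neutral, activating against repressive and repressive against neutral responses, and 36, 61 and 25 for neutral, repressive and activating vehicle against parental. Members called were 2 in the activating line and in both its interactions, and 0 in the repressive line, its interaction with the neutral line and both vehicle comparisons with a call. With a mean of at least 20 counts, 4 of the 4 members tested were called in the activating line, 3 of 5 against neutral and 4 of 5 against repressive. Library totals without TMM, chosen after seeing the data, moved the median log2 fold change of all genes in the activating line from -0.0924 to -0.54 and the share of higher among called genes from 49% to 20.8%, and in the repressive line from 43.9% to 20.3%. All 9 members were then called in the activating line, where 11.1% of all genes were higher and 42.3% lower. With library totals 1 member was called in the repressive line and 0, with 58 genes, between repressive and neutral responses. Parental cells gave 1 gene in that setting. DESeq2 called 454 genes and 0 members in the repressive line, 273 genes between repressive and parental vehicle, and 6 members in the activating line. With no filter 24 genes were called in parental cells, 1 member in the repressive and 6 in the activating line. In 1 model over all groups 1 member was called in the repressive line and 542 genes between activating and parental vehicle. Where no number of genes stands beside a count of members, the share of all genes called in that setting is not given here.

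Same-numbered libraries did not all deviate together (r = -0.0264 to 0.247), and the numbers were not taken to pair the samples. Over the 4 lines r was 0.119 to 0.247 for replicate 1 and 0.0361 to 0.178 for replicate 4. It was -0.0264 to 0.0975 for replicate 2 and -0.00576 to 0.149 for replicate 3. Whether same-numbered libraries shared a batch was not tested. With the replicate block, 32 genes were called in parental cells, 205 between repressive and neutral responses, and 208, 686 and 90 between neutral, repressive and activating vehicle and parental, with 0 members in the last (LCORL adjusted p = 0.162), and TMPO was called in the repressive line (adjusted p = 0.00266). Leaving out 1 library gave 0 to 3 genes in parental cells, 105 to 415 in the neutral line, 202 to 517, 251 to 480 and 120 to 315 between neutral, repressive and activating vehicle and parental, the last with 0 to 1 members. Members called ranged from 0 to 2 (repressive line) and from 7 to 8 (activating line), and the left-out libraries moved MKI67 in the repressive line from -0.29 to 0.0492 and TACC3 there from -0.0605 to 0.387. The cause of these differences was not tested. Single-gene values were tallied over the alternatives for a chosen part of the comparisons, not for every member in each. Of these, 780 kept direction and call status, 34 lost the call, 5 gained one and 3 changed sign. The 780 include values that were not called in either setting. Low counts limit MKI67, TACC3 and SMC4 most.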
